A study of Homo sapiens with 60 samples.

Results

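Guibi-tang and Saengmaek-san, both multi-herb formulas of Korean traditional medicine given as hot-water extracts, were compared at their high dose in HT29 cells, an epithelial cell line long established from a human colorectal adenocarcinoma. The comparison takes every gene in 3 Guibi-tang and 3 Saengmaek-san libraries, chosen by their labels, so 6 of the 60 libraries of the series. All 6 cultures held HT29 cells exposed for 24 h to 500 µg/mL of one extract. The same formulas at 20 and 100 µg/mL (3 libraries each) and 3 libraries from vehicle cultures, labelled as 0.1% DMSO at 24 h, serve as context. The sample labels used here give neither the herbs in each formula nor whether cultures given an extract also received DMSO. Separate cultures are not stated for the replicates either, so the tests weigh differences against library-to-library spread that could be technical only. A single transformed line stands in for the colonic epithelium, with no immune or stromal cells in the culture.

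Colon epithelial cells respond to microbial products and inflammatory cytokines largely through NF-kB. This family of transcription factors is held in the cytoplasm by IkB proteins until the IKK kinase complex marks those inhibitors for destruction. Its targets in the gut lining include chemokines that draw in neutrophils and lymphocytes, antimicrobial proteins, the adhesion molecule ICAM1, complement factors, and the pathway's own inhibitors, which close a negative feedback loop.

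Depth was similar on both sides. The 3 Guibi-tang libraries held total counts of 27.8, 41.9 and 22.5 in units of 1e6 and the 3 Saengmaek-san libraries 36.6, 31.8 and 21.6, within a range of 19.5 to 41.9 over all 60 libraries. Mitochondrially encoded genes took 12.3%, 10.4% and 11.98% of counts in Guibi-tang libraries and 10.7%, 10.0% and 12.3% in Saengmaek-san libraries (exact two-sided permutation p = 0.6, where 3 against 3 cannot give less than 0.1). Libraries of the series parted along the numbering of their names on the first principal component (13.1% of variance). Replicate 3 of both formulas lay in the later-numbered part, at 18.5 for Guibi-tang and 18.95 for Saengmaek-san, and replicates 1 and 2 of both in the earlier-numbered part, between -14.1 and -8.33. Both sides thus hold 2 earlier-numbered libraries and 1 later-numbered library. Summed epithelial markers (12 genes including EPCAM and the keratins KRT8 and KRT18) ran from 11450 to 13120 CPM (counts of a gene per 1e6 counts of its library) with Guibi-tang and from 11600 to 13260 CPM with Saengmaek-san. Summed immune-cell markers (15 genes) ran from 7.77 to 9.63 CPM with Guibi-tang and from 8.77 to 11.2 CPM with Saengmaek-san, and CD3D, FCGR3A and TYROBP were at 0 in all 6 libraries. Fibroblast and endothelial marker sums overlapped between the formulas as well, with PDGFRA, POSTN and KDR at 0 throughout. These marker sums use plain library totals, and the CPM of single genes from here on use TMM-scaled ones.

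Guibi-tang cultures carried more transcript of a compact set of inflammatory and host-defence genes than Saengmaek-san cultures, and little else differed. Of 17049 genes tested, 63 passed an adjusted p of 0.05 in edgeR's quasi-likelihood test (0.37% of genes), 56 of them higher with Guibi-tang (0.328%) and 7 lower (0.0411%). The higher genes were led by neutrophil-attracting chemokines, by the antiprotease elafin (PI3), by the lymphocyte chemokine CCL20 and by complement C3. A log2 difference of 1 or more was seen in 24 of the higher genes and in 1 of the lower genes. The values of the formulas did not overlap between libraries in 61 of the 63 genes, against 8.72% of all genes tested. In all 63 the sign of the difference was the same in the 3 pairs of same-numbered libraries, which the lack of overlap already requires in those 61. In 25 genes, all of them higher, the call held under each of 14 alternative analyses, and a fit on the 6 libraries alone, with far fewer residual degrees of freedom, called 26 genes, all higher.

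**Figure D1:**
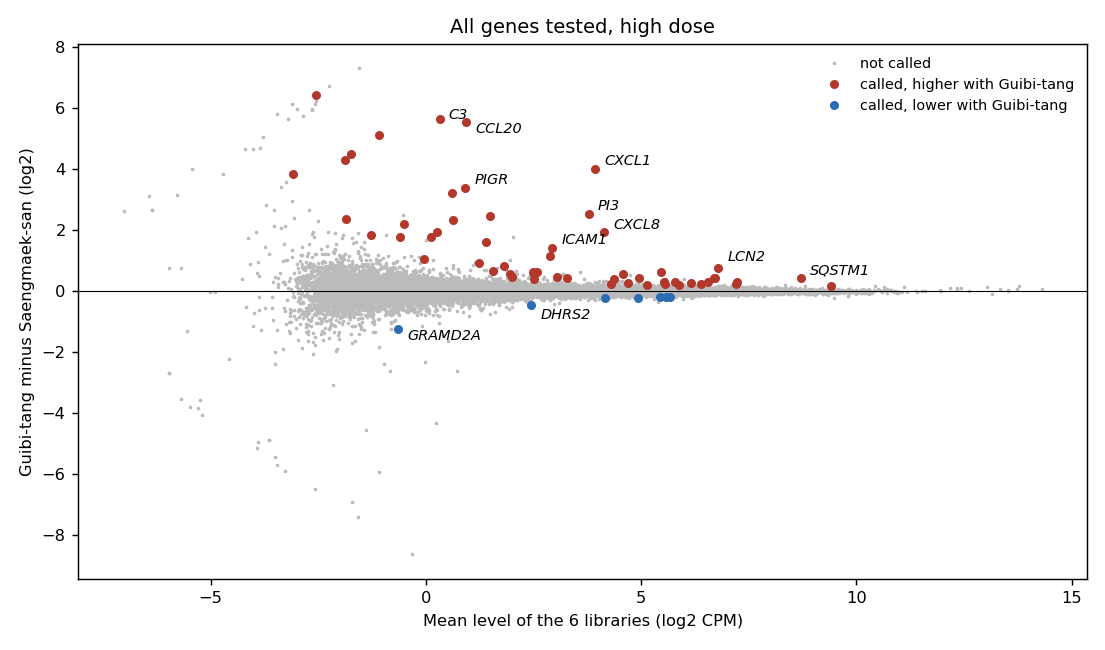
Guibi-tang minus Saengmaek-san at the high dose (log2, vertical axis) against the mean level of the 6 libraries (log2 CPM, horizontal axis), 1 point a gene. Genes at 0 in all 6 libraries are not drawn. The 56 genes called higher (red) include CXCL1, PI3 and CXCL8 far above the band of uncalled genes (grey), while the 7 called lower (blue) lie close to it except GRAMD2A at -1.25.

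The neutrophil-attracting CXC chemokines, secreted ligands of the receptors CXCR1 and CXCR2, differed most as a family. All 6 members that passed the filter on low counts were called higher, with a median log2 difference of 2.84 against -0.0033 over all genes tested. The seventh, PPBP, had no count in the 6 libraries. CXCL5 averaged 0.018 CPM with Saengmaek-san and 0 CPM in vehicle libraries, so it passed the filter through groups where it was high. It could only be called higher, and its place in this count is no support. CXCL1 (ENSG00000163739, chr4:73869393-73871242, GRCh38, plus strand) stood at 27.1, 27.3 and 31.5 CPM in Guibi-tang libraries, against 1.54, 1.56 and 2.45 CPM in Saengmaek-san libraries. The lowest Guibi-tang library was far above the highest Saengmaek-san library, a log2 difference of 4.01 ± 0.15 (SE, edgeR adjusted p = 2.14e-26). CXCL8, or interleukin 8, the main human neutrophil chemokine, measured 25.6, 30.8 and 27.3 CPM with Guibi-tang and 7.61, 7.17 and 7.35 CPM with Saengmaek-san. Its log2 difference was 1.92 ± 0.10 (adjusted p = 9.15e-22). Vehicle libraries held 7.87 ± 0.19 CPM of CXCL8 and 2.07 ± 0.23 CPM of CXCL1 (SD, n = 3).

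The 4 remaining members were expressed at lower levels and showed the same separation. CXCL3 had 4.27, 4.45 and 5.63 CPM in Guibi-tang libraries, against 0.867, 0.797 and 0.961 CPM in Saengmaek-san libraries (log2 difference 2.45 ± 0.18). CXCL2 had 1.99, 2.73 and 3.02 CPM with Guibi-tang and 0.433, 0.429 and 0.721 CPM with Saengmaek-san (2.34 ± 0.22). CXCL6 had 2.13, 2.94 and 3.11 CPM with Guibi-tang and 0.406, 0.0920 and 0.385 CPM with Saengmaek-san. CXCL5 rests on few reads, 54 over the 3 Guibi-tang libraries and 2 over the 3 Saengmaek-san libraries, a ratio of 26.3 with a 95% counting interval of 6.95 to 223. CXCL5 and CXCL6 were named after their values were seen. CXCL1, CXCL2 and CXCL3 are close paralogs, as are CXCL5 and CXCL6, and expected counts divide reads that match several genes, so how much each member contributed is uncertain. In every one of the 6 genes each Guibi-tang library exceeded each Saengmaek-san library.

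The promoter stretches of these 6 genes are shown because they share a motif as well as a direction. In RefSeq (GRCh38.p14) windows from 250 bases before to 50 after the annotated start, the letters GGAANTTCC, one form of the NF-kB motif and searched on both strands, occurred in all 6 family members, always as GGAATTTCC. The motif lies between 91 and 69 bases before the start, and capitals mark it in each sequence, read 5′ to 3′ on the strand of the gene. CXCL1 is shown from chr4:73869285-73869353 (plus), CXCL2 from chr4:74099234-74099302 (minus), CXCL3 from chr4:74038729-74038797 (minus), CXCL5 from chr4:73998729-73998797 (minus), CXCL6 from chr4:73836559-73836627 (plus) and CXCL8 from chr4:73740448-73740516 (plus). ICAM1 (chr19:10270904-10270972, plus) and NFKBIA (chr14:35404792-35404860, minus) are added because they hold GGAAATTCC, which is GGAATTTCC read on the opposite strand.
CXCL1: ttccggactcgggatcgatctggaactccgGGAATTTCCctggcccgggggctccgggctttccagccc
CXCL2: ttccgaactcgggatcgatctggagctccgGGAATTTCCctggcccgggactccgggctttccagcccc
CXCL3: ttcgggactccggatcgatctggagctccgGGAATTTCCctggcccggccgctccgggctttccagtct
CXCL5: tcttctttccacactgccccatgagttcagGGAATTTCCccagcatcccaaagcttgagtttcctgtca
CXCL6: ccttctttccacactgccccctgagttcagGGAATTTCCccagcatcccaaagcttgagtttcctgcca
CXCL8: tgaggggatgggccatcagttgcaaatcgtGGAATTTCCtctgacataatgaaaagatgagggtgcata
ICAM1: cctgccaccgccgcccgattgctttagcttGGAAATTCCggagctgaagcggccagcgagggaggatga
NFKBIA: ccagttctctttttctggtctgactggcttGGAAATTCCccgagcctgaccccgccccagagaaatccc

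Of the 54 protein-coding genes called higher, 39 had a promoter window, and 9 of those (23.1%) held GGAANTTCC, the 8 genes printed here and OAS3. The same letters were in 339 of 35116 windows of the whole table (0.965%), which belonged to 1.16% of its genes. A second form of the motif, with fewer fixed letters, was searched as well and parted the genes less. It was in 15 of the same 39 genes (38.5%), against 7.83% of the genes of the whole table. The CXC chemokines among the 9 include close paralogs with similar flanking letters, so these matches are not independent of each other. A match describes letters in this window and no binding was measured.

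CCL20 was the outlier among the remaining chemokines. It draws CCR6-bearing lymphocytes and dendritic cells to mucosal surfaces, and was counted 89, 201 and 72 times in Guibi-tang libraries, against 3, 3 and 1 times in Saengmaek-san libraries. The ratio per library size was 50.45 (95% counting interval 24.2 to 126, adjusted p = 1.57e-17). It was the only one called of 11 tested members of the list of other chemokines, whose median log2 difference was 0.16. That list also holds CMTM4 and CMTM6, which are membrane proteins and not chemokines, at -0.003 and -0.04. Fractalkine (CX3CL1) averaged 0.930 CPM with Guibi-tang and 0.543 CPM with Saengmaek-san, and CXCL10, a ligand of CXCR3 on T cells, 0.325 and 0.137 CPM in the same order, with adjusted p = 0.47 and 0.524.

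Among NF-kB subunits and feedback inhibitors, 4 of 17 tested were called higher, against 0.328% of all genes. None was called lower, and the median log2 difference was 0.16. Of these 4, 3 are inhibitors of the pathway. TNFAIP3 (A20), a ubiquitin-editing enzyme that shuts off signalling, had 2.93, 3.19 and 3.06 CPM with Guibi-tang and 1.79, 1.56 and 1.49 CPM with Saengmaek-san (log2 difference 0.91 ± 0.16, adjusted p = 0.000195). ZC3H12A, an RNase that degrades inflammatory transcripts, had 27.9, 27.3 and 29.6 CPM in Guibi-tang libraries, against 18.9, 18.1 and 21.4 CPM in Saengmaek-san libraries (0.54 ± 0.06, adjusted p = 6.87e-09). For both genes the library ranges stayed apart.

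NFKBIA, which encodes IkB-alpha, had 29.1, 26.1 and 29.5 CPM with Guibi-tang and 23.7, 20.0 and 26.7 CPM with Saengmaek-san, so the ranges overlap (0.27 ± 0.06, adjusted p = 0.0236). Its call was lost without replicate 1 or 3 of Guibi-tang or replicate 1 or 2 of Saengmaek-san, with adjusted p up to 0.735. RELB, a subunit of the non-canonical pathway, had 11.3, 11.3 and 10.6 CPM in Guibi-tang libraries and 8.29, 8.58 and 7.83 CPM in Saengmaek-san libraries (0.43 ± 0.08, adjusted p = 0.000659). NFKB2, its usual partner, averaged 21.0 ± 1.56 CPM with Guibi-tang and 17.2 ± 1.89 CPM with Saengmaek-san (SD, n = 3 each), and edgeR gave an adjusted p of 0.106. With a term for the library numbering NFKB2 passed (log2 difference 0.29, adjusted p = 0.017), as did TNIP1, an A20-binding inhibitor of the pathway (0.26, adjusted p = 0.000296). The canonical subunits NFKB1 and RELA had log2 differences of 0.03 ± 0.05 and 0.04 ± 0.06, neither called.

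Of 25 IKK and TNF receptor signalling genes, BIRC3 alone was called. This ubiquitin ligase of the TNF receptor complex had 9.16, 10.1 and 11.2 CPM with Guibi-tang and 3.85, 5.09 and 4.95 CPM with Saengmaek-san (log2 difference 1.14 ± 0.12, adjusted p = 1.68e-09). The kinases CHUK, IKBKB and IKBKG and the receptor TNFRSF1A all differed by less than 0.10 on the log2 scale, none of them called. Toll-like receptors and their adaptors gave no call among 14 tested in edgeR, and their differences ran from -0.28 for CD14 to 0.25 for TICAM1.

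Many inflammatory effector genes were higher with Guibi-tang. Of 25 tested, 11 were called higher, against 0.328% of all genes, and none lower, with a median log2 difference of 0.44. This list, like the others, was written with earlier results of these data known, so its count is no independent support. C3, SAA1 and SAA2 averaged at most 0.054 CPM with Saengmaek-san at this dose and in vehicle libraries. They passed the filter through groups where they were high and could only be called higher. ICAM1, the endothelial and epithelial ligand that leukocyte integrins grip, had 9.70, 10.7 and 13.0 CPM in Guibi-tang libraries, against 4.04, 4.05 and 4.47 CPM in Saengmaek-san libraries (1.41 ± 0.11, adjusted p = 5.22e-14). MMP7 (matrilysin), an epithelial metalloprotease, had 55.7, 51.2 and 52.1 CPM with Guibi-tang and 32.8, 37.6 and 33.2 CPM with Saengmaek-san (0.62 ± 0.07, adjusted p = 2e-09). TNFAIP2 had 115, 121 and 116 CPM with Guibi-tang and 94.4, 88.8 and 80.5 CPM with Saengmaek-san. In these genes the lowest Guibi-tang library again exceeded the highest Saengmaek-san library.

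Complement and acute-phase transcripts were scarce with Saengmaek-san. C3, the central complement protein, was counted 62, 103 and 59 times in Guibi-tang libraries and 2, 1 and 1 times in Saengmaek-san libraries, a ratio of 54.6 (95% counting interval 21.0 to 202). CFB, complement factor B, had 4.31, 3.73 and 3.80 CPM with Guibi-tang and 1.41, 1.13 and 1.35 CPM with Saengmaek-san (log2 difference 1.601 ± 0.15). SAA1, serum amyloid A, was counted 34 times over the Guibi-tang libraries and 0 times over the Saengmaek-san libraries. Against a floor of 3 counts over the group it was at least 11.1-fold higher. Its near-identical neighbour SAA2 had 20 counts with Guibi-tang and 1 with Saengmaek-san, and its call was lost without Guibi-tang replicate 1 or Saengmaek-san replicate 1 or 2. How reads were divided between SAA1 and SAA2 is uncertain, and both were named after their values were seen. IL32, a cytokine, had 1.99, 1.42 and 1.69 CPM with Guibi-tang and 0.487, 0.521 and 0.433 CPM with Saengmaek-san (1.79 ± 0.23, adjusted p = 2.62e-07).

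The other effectors called were CSF1, the macrophage growth factor, SDC4, a heparan sulphate proteoglycan, and SOD2, the mitochondrial superoxide dismutase. CSF1 was named after its values were seen. SDC4 had 124, 124 and 113 CPM in Guibi-tang libraries and 89.8, 90.1 and 85.6 CPM in Saengmaek-san libraries (log2 difference 0.44 ± 0.05). SOD2 differed little in size but without overlap, at 91.2, 93.7 and 88.2 CPM with Guibi-tang and 77.4, 81.3 and 73.3 CPM with Saengmaek-san (0.23 ± 0.04, edgeR adjusted p = 0.00051). Cyclooxygenase 2 (PTGS2), often taken as an NF-kB target, averaged 25.7 CPM with Guibi-tang and 25.5 CPM with Saengmaek-san and was not called. Several classical cytokines were too scarce to test. Over 3 libraries each, Guibi-tang and Saengmaek-san gave 21 and 1 counts of TNF, 22 and 5 of IL1B, 17 and 4 of IL1A, 22 and 6 of CSF2, and 1 and 0 of IL6.

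**Figure D2:**
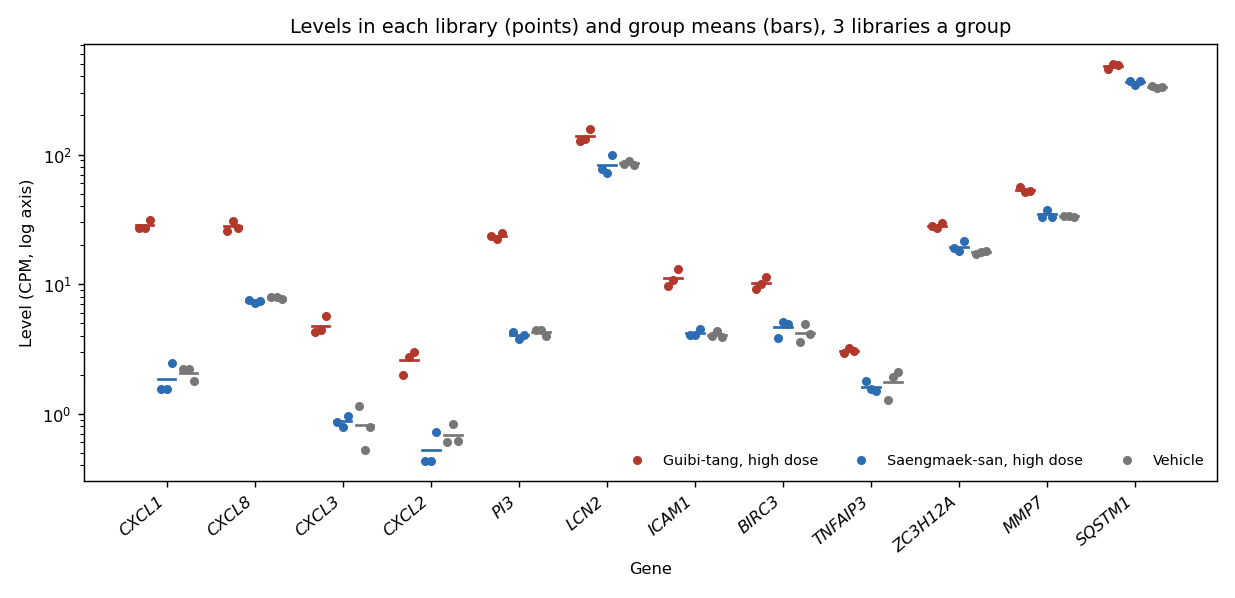
Levels of 12 genes in each library (points, CPM on a log axis) with the mean of each group (bars), for Guibi-tang high dose, Saengmaek-san high dose and vehicle, 3 libraries each. In all 12 genes the Guibi-tang points lie above the Saengmaek-san points, which sit near the vehicle points, with the widest gap in CXCL1.

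Epithelial antimicrobial and barrier genes split between strong and absent differences. Of 11 tested, 3 were called higher, against 0.328% of all genes, and none lower, with a median log2 difference of 0.25. PI3 (ENSG00000124102, chr20:45174876-45176544, GRCh38), which encodes elafin, an inhibitor of neutrophil elastase, had 23.5, 22.2 and 24.8 CPM in Guibi-tang libraries, against 4.28, 3.77 and 4.08 CPM in Saengmaek-san libraries. Its log2 difference of 2.53 ± 0.10 carried the smallest adjusted p among the genes reported here (7.44e-27). PIGR, the receptor that carries IgA across the epithelium, was counted 102, 135 and 75 times with Guibi-tang and 11, 8 and 10 times with Saengmaek-san, a ratio of 10.5 (95% counting interval 7.16 to 15.9). LCN2, which withholds iron-binding siderophores from bacteria, had 127, 132 and 158 CPM with Guibi-tang and 76.7, 72.1 and 98.8 CPM with Saengmaek-san (0.76 ± 0.09, adjusted p = 1.99e-07). Replicate 3 was the highest library of LCN2 on both sides, and the groups stayed apart.

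Lysozyme (LYZ), the most abundant of these genes, averaged 1499 CPM with Guibi-tang and 1458 CPM with Saengmaek-san, a log2 difference of 0.04 ± 0.05 that was not called. DUOX2, an oxidase of the gut lining, averaged 0.373 CPM with Guibi-tang and 0.0918 CPM with Saengmaek-san and missed the threshold (adjusted p = 0.0866). Chosen after its values were seen, IL17C, a cytokine that epithelial cells secrete and that acts back on them, was counted 25, 42 and 19 times in Guibi-tang libraries and 0, 1 and 1 times in Saengmaek-san libraries. Its ratio was 41.95 (95% counting interval 11.3 to 352, edgeR adjusted p = 1.05e-09). The enterocyte adhesion gene CEACAM7 had 1.34, 1.05 and 1.05 CPM with Guibi-tang and 0.217, 0.245 and 0.288 CPM with Saengmaek-san, and was the only one called of 13 enterocyte markers tested.

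Interferon-stimulated genes leaned towards Guibi-tang with few calls. Of 32 tested, 3 were called higher, against 0.328% of all genes, and none lower. The median difference was 0.31, and 28 had a positive difference, against 8268 positive differences among the 17049 genes tested. OAS1, a sensor enzyme that activates RNA decay, had 23.4, 25.4 and 21.5 CPM with Guibi-tang and 18.9, 17.1 and 17.3 CPM with Saengmaek-san (0.40 ± 0.10, adjusted p = 0.0379). OAS3 had 101, 103 and 104 CPM in Guibi-tang libraries and 86.0, 81.1 and 84.8 CPM in Saengmaek-san libraries (0.29 ± 0.07, adjusted p = 0.0356). IFIT2, which blocks translation of viral RNA, had 4.92, 4.38 and 4.71 CPM with Guibi-tang and 3.52, 3.25 and 3.27 CPM with Saengmaek-san. These 3 calls are fragile. OAS3 lost it whichever of the 6 libraries was left out, OAS1 without replicate 1 or 2 of Guibi-tang or replicate 2 or 3 of Saengmaek-san, and IFIT2 without any one of the libraries except Guibi-tang replicate 2.

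Outside the lists, SLFN5, an interferon-inducible gene, had 32.9, 36.1 and 38.5 CPM with Guibi-tang and 24.8, 28.0 and 26.2 CPM with Saengmaek-san (log2 difference 0.44 ± 0.07, adjusted p = 0.000103). HERC6 and PDZK1IP1 had log2 differences of 0.55 ± 0.12 and 0.47 ± 0.10 (adjusted p = 0.0169 for each). HERC6 lost its call without Guibi-tang replicate 2 or Saengmaek-san replicate 1 or 3, and PDZK1IP1 without Guibi-tang replicate 3 or Saengmaek-san replicate 1 or 2. None of the 17 MHC class I genes tested passed in edgeR's fit without further terms, with a median of 0.09. With a term for the library numbering TAP1, a subunit of the peptide transporter, passed at 0.44 (adjusted p = 0.042), against an adjusted p of 0.0734 without it.

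**Figure D3:**
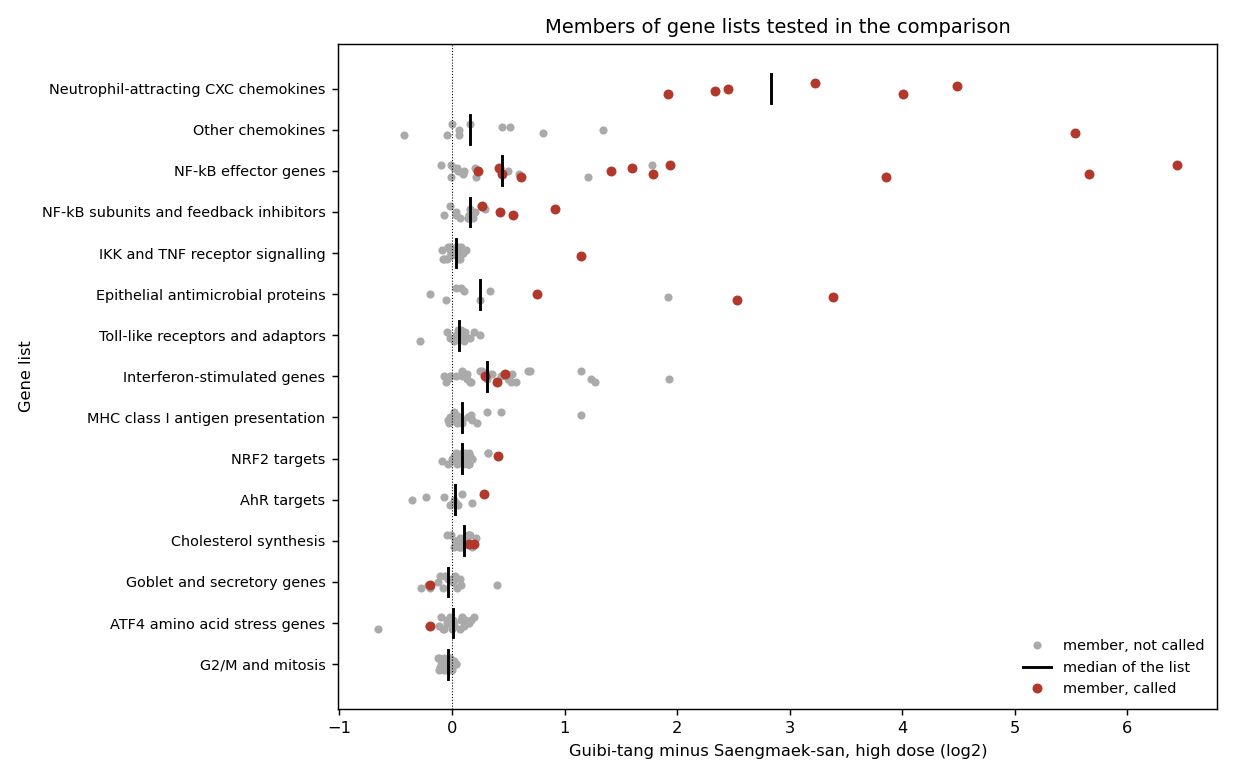
Differences between Guibi-tang and Saengmaek-san at the high dose (log2) for the tested members of 15 gene lists, with called members in red, uncalled members in grey and the median of each list as a black bar. All 6 CXC chemokines lie between 1.92 and 4.49, while the median is 0.10 for cholesterol synthesis and -0.04 for G2/M and mitosis.

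Stress, xenobiotic and lipid genes differed in a few members by small amounts. SQSTM1 (p62), an autophagy receptor that is also a target of the antioxidant factor NRF2, had 455, 500 and 488 CPM in Guibi-tang libraries and 368, 346 and 370 CPM in Saengmaek-san libraries (log2 difference 0.41 ± 0.04, adjusted p = 2.6e-11). It was the only one called of 31 NRF2 targets tested, of which 29 had a positive difference with a median of 0.09. GCLM, a subunit of the enzyme that limits glutathione synthesis, had 77.1, 81.2 and 74.6 CPM with Guibi-tang and 73.3, 81.5 and 73.7 CPM with Saengmaek-san, a difference of 0.03 with a 95% interval from -0.12 to 0.18. HMOX1, haem oxygenase 1, differed by 0.14 (interval -0.06 to 0.34) and the cystine importer SLC7A11 by 0.01 (interval -0.26 to 0.28). The aldo-keto reductases AKR1C1, AKR1C2 and AKR1C3, paralogs that share reads, differed by 0.16, 0.32 and 0.14, none called.

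UGT1A6, a glucuronosyltransferase induced through the aryl hydrocarbon receptor, had 63.1, 58.0 and 60.3 CPM with Guibi-tang and 50.3, 49.8 and 48.1 CPM with Saengmaek-san (log2 difference 0.29 ± 0.07, adjusted p = 0.0259). Its exons overlap those of other UGT1A transcripts, and the call was lost without any one library except Guibi-tang replicate 2. The receptor's best-known targets did not follow it. CYP1A1 averaged 0.834 CPM with Guibi-tang and 1.10 CPM with Saengmaek-san (-0.36, interval -0.94 to 0.22), and CYP1B1 averaged 46.1 CPM with Guibi-tang and 54.1 CPM with Saengmaek-san (-0.23, adjusted p = 0.353). In the cholesterol synthesis pathway, 2 of 25 tested were called, SQLE at 726, 691 and 718 CPM with Guibi-tang and 618, 645 and 659 CPM with Saengmaek-san, and the mevalonate kinase MVK with a difference of 0.19 ± 0.05. Both calls were lost without Guibi-tang replicate 1 or Saengmaek-san replicate 1 or 2, and each also without 1 or more of the other libraries. Of the 25 cholesterol genes, 23 had a positive difference, against 8268 of all 17049 genes tested, and their median was 0.10.

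The fixed readouts of mucus, splicing and early response gave no call. MUC2, the gel-forming mucin of goblet cells, had 20.4, 17.6 and 23.6 CPM with Guibi-tang and 22.6, 16.7 and 20.5 CPM with Saengmaek-san (0.03, interval -0.29 to 0.35). CLK1, a splicing-factor kinase, differed by -0.11 (interval -0.23 to 0.01) and EGR1, an immediate early transcription factor, by -0.06 (interval -0.32 to 0.21). TXNIP, an inhibitor of thioredoxin, had 43.0, 47.0 and 45.1 CPM with Guibi-tang and 48.1, 55.4 and 52.4 CPM with Saengmaek-san, with an adjusted p of 0.302 in edgeR's fit without pairing and of 0.016 with the replicate number as a block. DUSP5, a phosphatase that damps ERK signalling, was called higher at 7.02, 6.69 and 6.63 CPM with Guibi-tang and 4.82, 4.23 and 4.08 CPM with Saengmaek-san (0.62 ± 0.10, adjusted p = 0.000132), the only one of 18 MAPK feedback genes tested.

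Few genes were lower with Guibi-tang, and the differences were small. DHRS2, a short-chain dehydrogenase, had 4.23, 5.03 and 4.58 CPM in Guibi-tang libraries, against 6.74, 6.07 and 6.06 CPM in Saengmaek-san libraries (log2 difference -0.44 ± 0.11, adjusted p = 0.0379). MAOA, monoamine oxidase A, had 29.5, 27.6 and 27.0 CPM with Guibi-tang and 31.9, 33.9 and 32.6 CPM with Saengmaek-san (-0.23 ± 0.05). HEPH, a copper oxidase of iron export, had 16.6, 17.1 and 15.7 CPM with Guibi-tang and 20.1, 19.6 and 17.6 CPM with Saengmaek-san (-0.21 ± 0.05). All 3 kept their library ranges apart. COPG2, a coat protein of Golgi vesicles, GALNT12, which starts mucin-type sugar chains, and the asparagine synthetase ASNS each differed by -0.20 to -0.19. GRAMD2A, a scarce transcript named after its values were seen, had 0.398, 0.396 and 0.320 CPM with Guibi-tang and 0.948, 0.889 and 0.865 CPM with Saengmaek-san. GRAMD2A lost its call whichever of the 6 libraries was left out and in DESeq2. HEPH lost it in 11 of the 14 alternatives, among them DESeq2, DESeq2 size factors and the removal of any one library except Saengmaek-san replicate 3. DHRS2 and MAOA each lost it in 8 alternatives, GALNT12 in 9, COPG2 in 7 and ASNS in 6. No gene was called lower without Saengmaek-san replicate 2, and 2 to 10 were with any other library left out.

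At the lower doses part of these genes were called again. Libraries of the lower doses stand on neither side of the high-dose comparison, but they entered the same fit and its estimate of spread. Of the 56 genes higher at 500 µg/mL, 37 were also called higher at 100 µg/mL, where 0.37% of all genes were, and 28 at 20 µg/mL, where 0.17% were. A positive difference was found in 53 of the 56 at 100 µg/mL and in 52 at 20 µg/mL. The exceptions at both doses were UAP1L1, NCR3LG1 and DUSP3, all named after their values were seen. With any 1 library of those doses left out, 31 to 35 of the 56 were called at 100 µg/mL and 22 to 27 at 20 µg/mL. At both lower doses replicate 2 was later-numbered for Guibi-tang and earlier-numbered for Saengmaek-san, so the sides were not balanced as at the high dose. The test of dose steps given below includes the low-dose libraries. With a term for the library numbering, 36 of the 56 were called at 100 µg/mL and 30 at 20 µg/mL. Of the 7 lower genes none was called at either dose (0.0235% of all genes were called lower at 100 µg/mL), although 6 differences were negative at 100 µg/mL and 5 at 20 µg/mL.

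CXCL1 had 15.4, 19.9 and 15.7 CPM at 20 µg/mL of Guibi-tang, 21.4, 24.6 and 23.7 CPM at 100 µg/mL, and at least 27.1 CPM at 500 µg/mL. With Saengmaek-san it lay between 1.14 and 2.45 CPM over all 9 libraries, where vehicle had 2.22, 2.20 and 1.80 CPM. The log2 difference between the formulas in CXCL1 was 3.43 at 20, 3.76 at 100 and 4.01 at 500 µg/mL. PI3 followed a like course, with mean levels of 16.1, 21.4 and 23.5 CPM over the rising Guibi-tang doses and 4.04, 3.69 and 4.05 CPM over those of Saengmaek-san. In both genes the formulas were already apart at the lowest dose.

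SQSTM1 stood apart from the chemokines in its dose pattern. Guibi-tang gave 371, 391 and 365 CPM at 20 µg/mL, 340, 367 and 373 CPM at 100 µg/mL and 455, 500 and 488 CPM at 500 µg/mL, while Saengmaek-san gave means of 340, 344 and 361 CPM. The formulas differed by 0.14 (adjusted p = 0.26) and 0.07 (adjusted p = 0.552) at the lower doses. The step between low and high dose was 0.27 ± 0.05 larger with Guibi-tang, the nearest to a call of all genes tested (adjusted p = 0.114). In that test of the dose steps edgeR called no gene, 664 had an unadjusted p under 0.05, and DESeq2 called 3, among them SQSTM1 (adjusted p = 0.000362). With a term for the library numbering edgeR called SQSTM1 alone (adjusted p = 0.0138). UGT1A6 and DUSP5 were likewise called at 500 µg/mL and at neither lower dose, and their dose steps gave adjusted p = 1.

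**Figure D4:**
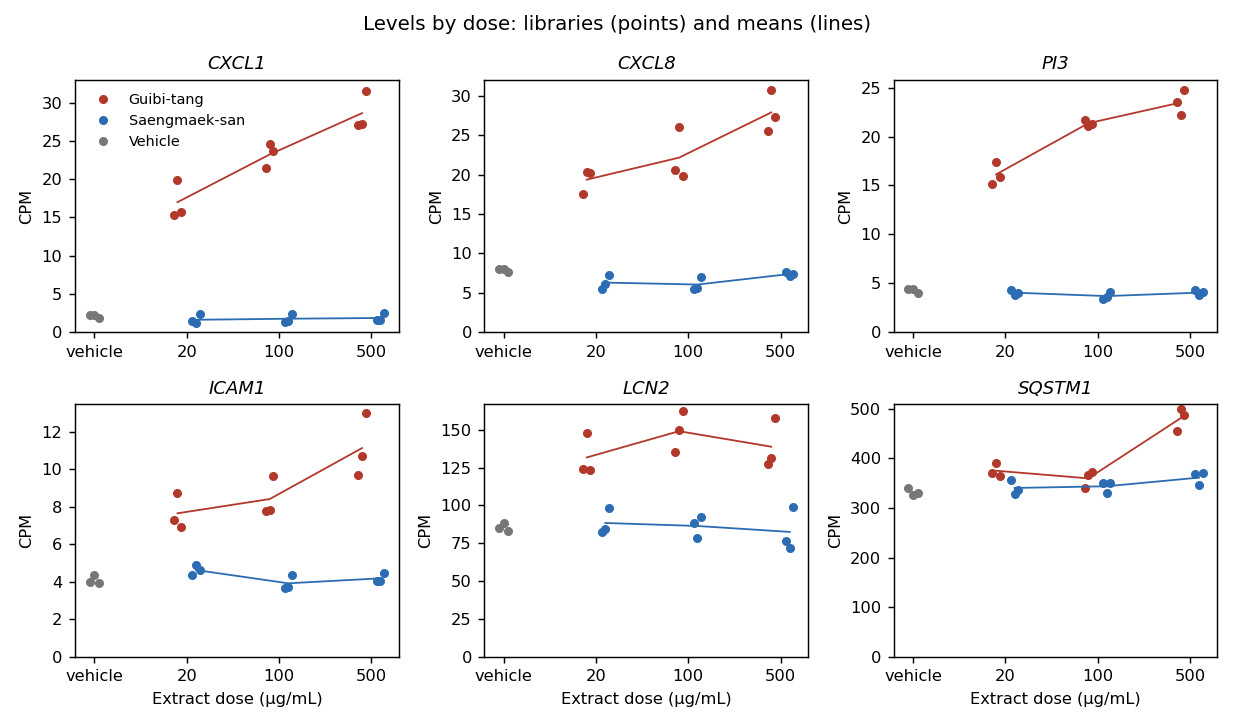
Levels (CPM, linear axes starting at 0) of 6 genes in vehicle and at 20, 100 and 500 µg/mL of Guibi-tang and Saengmaek-san, with libraries as points and means as lines. CXCL1, CXCL8, PI3 and ICAM1 are above vehicle at every Guibi-tang dose, SQSTM1 stands out at 500 µg/mL, and Saengmaek-san stays close to vehicle.

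Set against vehicle, most of the genes called higher lay above it with Guibi-tang. Of the 56, 51 were called above vehicle there in edgeR, against 219 of all 17049 genes tested. The same Guibi-tang libraries had picked out the 56, so this count is no independent support. The comparisons of the formulas with vehicle share the 3 vehicle libraries, so their values are given side by side. Names of the vehicle libraries carry a prefix of their own, outside the numbering of the extracts, and were counted as earlier-numbered. Whether vehicle libraries were made apart from the others is not in the labels, and its part in these values was not tested. In edgeR 2.26% of all genes were called with Guibi-tang and 4.28% with Saengmaek-san. CXCL1 was 3.78 ± 0.14 higher than vehicle on the log2 scale with Guibi-tang and differed by -0.23 ± 0.21 with Saengmaek-san (edgeR adjusted p = 0.59). CXCL8 was 1.83 above vehicle with Guibi-tang (adjusted p = 2.26e-21) and -0.09 from it with Saengmaek-san (adjusted p = 0.7). PI3 and ICAM1 were 2.45 and 1.43 above vehicle with Guibi-tang, and their differences with Saengmaek-san were -0.08 and 0.02. No gene of the 56 was called above or below vehicle with Saengmaek-san. Those nearest to a call there were MVK, at -0.15 (adjusted p = 0.0516), and SQSTM1, at 0.12 (adjusted p = 0.0574).

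Other genes moved away from vehicle with both formulas. GCLM was 0.53 and 0.50 above vehicle with Guibi-tang and with Saengmaek-san, CLK1 0.53 and 0.64, and SLC7A11 0.59 and 0.58 in the same order, each called in edgeR (adjusted p between 7.26e-10 and 0.0109). EGR1 was -0.48 and -0.42 from vehicle (adjusted p = 0.0306 and 0.045). Over the rising doses CLK1 averaged 50.7, 48.8 and 46.3 CPM with Guibi-tang and 49.5, 47.7 and 50.1 CPM with Saengmaek-san. Vehicle held 32.1 CPM of CLK1. EGR1 averaged 35.5, 36.45 and 35.95 CPM with Guibi-tang and 37.5, 37.3 and 37.4 CPM with Saengmaek-san, where vehicle held 49.99 CPM. Both were thus about as far from vehicle at the lowest dose as at the highest. GCLM and SLC7A11 were instead highest at the high dose with both formulas. Of the 7 genes called lower, 2 were called below vehicle with Guibi-tang and none above it with Saengmaek-san. MAOA was -0.25 from vehicle with Guibi-tang (edgeR adjusted p = 0.00212) and -0.03 with Saengmaek-san. DHRS2 was -0.38 from it with Guibi-tang (edgeR adjusted p = 0.0412) and 0.07 with Saengmaek-san. ASNS was -0.14 from it with Guibi-tang and 0.05 with Saengmaek-san, neither called. MVK and SQLE were at 0.04 and 0.08 from vehicle with Guibi-tang and -0.15 and -0.07 with Saengmaek-san, none of them called. The mitochondrial share of counts was 12.8%, 12.8% and 13.5% in vehicle libraries, above every library of the 2 formulas at the high dose, and its part in these values was not tested.

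**Figure D5:**
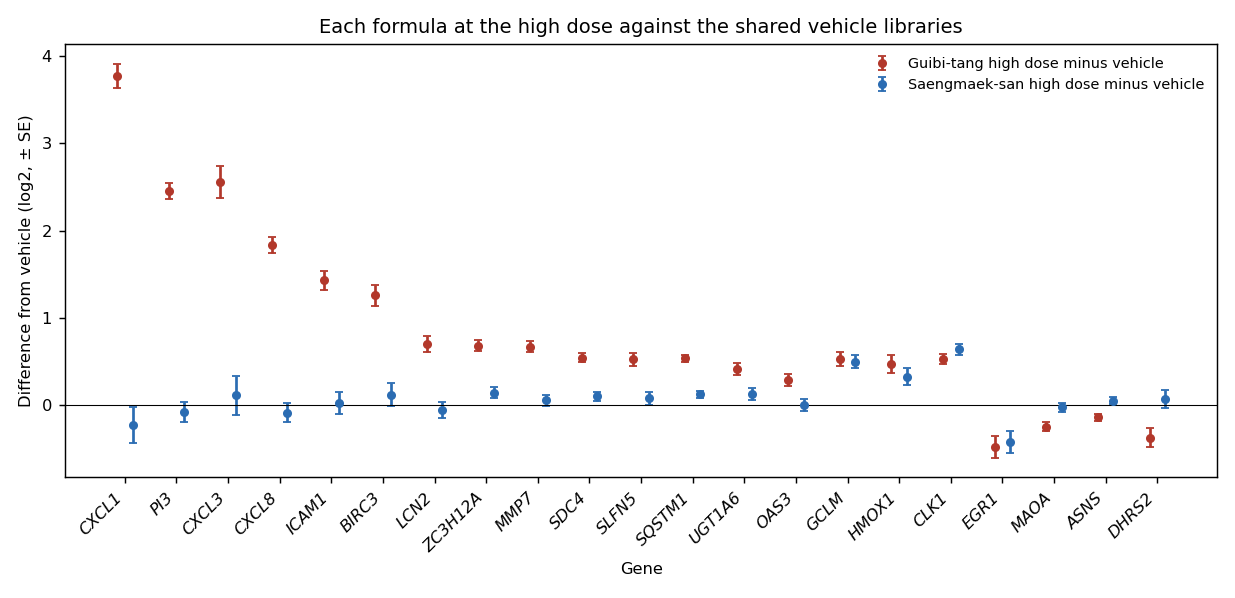
Difference from vehicle (log2, points with SE bars) of 21 genes for Guibi-tang and Saengmaek-san at the high dose, which share the 3 vehicle libraries. Inflammatory genes such as CXCL1 (3.78 with Guibi-tang, -0.23 with Saengmaek-san) part the formulas, while GCLM, CLK1 and EGR1 lie at about the same distance from vehicle with both.

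Large programmes of the cell did not part the formulas. None of the 28 G2/M and mitosis genes, 32 G1/S and replication genes, 27 MYC and ribosome biogenesis genes, 22 unfolded protein response genes or 21 p53 pathway genes tested was called in edgeR, and their medians ran from -0.04 to 0.01 beside -0.0033 for all genes. With the replicate number as a block, the p53 target CDKN1A, a cell-cycle inhibitor, passed with a difference of 0.41 (adjusted p = 0.00844), and so it did with a term for the library numbering (adjusted p = 0.00649). Over all 35 lists, 37 members were called.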

How the data were processed

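HT29 cultures were profiled after 24 h by RNA sequencing with a directional kit. The deposited values are expected counts per gene, and the submitters' processing notes name RSEM 1.3.3, STAR 2.7.3a, Trim Galore 0.6.5, FastQC 0.11.9 and the build GRCh38 (hg38). Which gene annotation was counted, and with what strand option, is not given in the sources used here. A read that matches several genes is shared out among them, which leaves levels of close paralogs uncertain. The table lists 60675 identifiers for 60 libraries. Fractional entries made up 27.7% of the nonzero ones, and all were rounded before testing. The series' design text gives the vehicle as 2% DMSO and the sample characteristics as 0.1%, which was not settled.

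Libraries were matched by their descriptions and grouped by their titles. The comparisons ran in R 4.3.3 with edgeR 4.0.16: filterByExpr kept 17049 genes holding 99.95% of counts, TMM scaled the libraries, and robust quasi-likelihood tests came from 1 fit over 57 libraries in 19 groups (38 residual degrees of freedom). Soshiho-tang, with 1 library a dose, stayed out of the fit. Adjustment was by Benjamini-Hochberg over the 17049 genes, with a threshold of 0.05. Differences are Guibi-tang minus Saengmaek-san, standard errors come from the difference and its test statistic, and intervals of differences are 95% intervals from them. CPM values are computed with TMM-scaled library sizes, except the sums of cell type markers, which use plain totals. Ratios of raw counts carry exact 95% intervals that cover counting error only. On simulated counts 200 of 17049 genes were changed. The test recovered 78 of 100 changed by 0.5 and 95 of 100 changed by 1 on the log2 scale, with 6 false calls. The changed genes averaged above 1 CPM, and simulated libraries of a group were independent, without library order or pairing. Scarcer genes and those features of the data were thus not covered. Replicate pairs differed by 6.51 to 17.2 times the chi-square per degree of freedom of 1 library counted again, so none was a duplicate.

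Same-numbered libraries deviated together from their group means (correlations 0.144, 0.129 and 0.286), so the numbers were taken to pair the samples. Libraries with other numbers gave 0.062 and 0.086 within the earlier-numbered part and -0.192 to -0.156 across the parts. The calls, standard errors and p-values reported nevertheless come from the fit without a replicate term, and the block was run as an alternative. In both groups replicate 3 is later-numbered and replicates 1 and 2 are not, and the library order and a pairing cannot be told apart. The order in which libraries were made is not in the labels, and the parts (31 earlier and 29 later names) were cut where the first principal component changed sign. Vehicle names, which carry a prefix of their own, were placed before all others.

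Named genes were the 15 largest differences each way among called protein-coding genes whose higher group averaged at least 5 CPM, with no overlap between libraries (15 higher and 6 lower qualified), up to 4 called members per list by p, 29 fixed readouts, and others marked as named after their values were seen. Uncalled members of the 35 lists are given as context. The lists hold 710 genes written from general knowledge. Comparisons, members, lists and alternatives were chosen with earlier results of these data known. Symbols came from a table of gene names (41209 identifiers) and coordinates from GENCODE 29, which may not be the submitters' release. Alternatives were DESeq2 size factors, no filter, DESeq2 1.42.0, a replicate block, an order term, fits on fewer libraries, and leaving out each library.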

Additional observations from a re-analysis of the deposited data

Results flagged for a closer look

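CXCL1 was also well above vehicle in extracts outside the comparison of the formulas. Of the 9 Soyo-san libraries at 3 doses, the lowest held 16.8 CPM and the highest 25.9 CPM, and of the 9 Okbyeongpung-san libraries the lowest held 15.6 CPM and the highest 28.7 CPM, where the highest vehicle library held 2.22 CPM. All of these libraries are later-numbered, and all vehicle libraries were counted as earlier-numbered. The later-numbered replicate 3 libraries of Saengmaek-san held 2.32, 2.42 and 2.45 CPM of CXCL1 at the low, medium and high dose. Its earlier-numbered replicates 1 and 2 at the high dose held less, 1.54 and 1.56 CPM. The earlier-numbered replicates 1 and 2 of Guibi-tang at the high dose held 27.1 and 27.3 CPM. The part of library order in these values was not tested. CXCL1 was not alone in being above vehicle with Soyo-san and Okbyeongpung-san. At the high dose CXCL8 averaged 25.4 CPM with Soyo-san and 25.3 CPM with Okbyeongpung-san, PI3 21.7 and 23.6 CPM, and ICAM1 9.99 and 10.05 CPM. Guibi-tang at that dose averaged 27.9, 23.5 and 11.1 CPM of these genes, and vehicle 7.87, 4.27 and 4.08 CPM. SQSTM1 averaged 403 and 377 CPM with Soyo-san and Okbyeongpung-san, below the 481 CPM of Guibi-tang. The 3 Soshiho-tang libraries, 1 per dose, held 4.73, 10.0 and 19.8 CPM of CXCL1 at the low, medium and high dose, the lowest still above every vehicle library. These values stood out because these extracts stand on neither side of any comparison above, and they have no test. The Soyo-san and Okbyeongpung-san libraries did enter the fit behind those comparisons, where they bear on its estimate of spread.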

How the results depend on the processing

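The comparison of the formulas at the high dose gave 63 calls, 63 with DESeq2 size factors, 65 with DESeq2, 69 in the earlier-numbered libraries alone, 84 with an order term, and 43 to 61 with 1 library left out. It gave 165 with no filter on low counts (123 higher, 42 lower), 26 in the 6 libraries alone and 132 there with a replicate block. The later-numbered part holds 1 library a side and gives no test. Same-numbered libraries deviated together in the check described, where pairing and library order cannot be told apart. The replicate block in the full fit gave 75 calls and kept all 63. It added TXNIP and CDKN1A among the genes described, and changed no other call of a gene named here. Of 37 called list members, 22 were called in the 6 libraries alone and 27 to 35 with 1 left out. At the medium dose 67 calls became 474 with no filter, 47 with an order term and 34 to 193 with 1 library left out. It was 193 without Guibi-tang replicate 1, 34 without replicate 3, and 42 and 37 without Saengmaek-san replicates 1 and 2. At the low dose 29 became 133 with no filter, 30 with an order term and 22 to 28 with 1 left out. Against vehicle, Guibi-tang had 385 calls, 617 with an order term and 161 to 274 with 1 library left out (206 and 210 when the one dropped was Guibi-tang replicate 1 or 3, while dropping vehicle replicate 1, 2 or 3 gave 161, 236 or 192). Saengmaek-san had 730, and 96 to 1088 with 1 left out (139 or 466 when its replicate 2 or 3 was dropped, while dropping vehicle replicate 1 or 3 gave 96 or 343). The test of dose steps gave 0, 99 with no filter, 3 with DESeq2, 1 with an order term and 0 to 1 with 1 library left out. Uncalled readouts changed sign: with the earlier-numbered libraries alone SLC7A11 was at -0.0043 and MUC2 at -0.0579. With 1 library left out, SLC7A11 ran from -0.0862 to 0.1053, MUC2 from -0.0932 to 0.1421, GCLM from -0.0059 to 0.0813 and EGR1 from -0.1267 to 0.0076. The cause was not tested in any of these. Depth limits genes under about 1 CPM, where a few reads set the ratio.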

Other observations

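A few called genes outside the lists of pathways, all named after their values were seen, were higher with Guibi-tang at substantial levels. KLK10, a secreted serine protease of the kallikrein family, had 171, 161 and 166 CPM in Guibi-tang libraries and 142, 127 and 136 CPM in Saengmaek-san libraries (log2 difference 0.30 ± 0.06, edgeR adjusted p = 0.000907), and was called at both lower doses too (adjusted p = 0.0452 at the medium and 0.0151 at the low dose). TRIM31, a ubiquitin ligase of the gut epithelium, had 156, 146 and 175 CPM with Guibi-tang and 129, 132 and 147 CPM with Saengmaek-san, so the ranges overlap. Its call (0.23 ± 0.05, adjusted p = 0.0379) was lost without replicate 1 or 3 of Guibi-tang or replicate 1 or 2 of Saengmaek-san. IFNGR1, a subunit of the interferon gamma receptor, had 80.3, 74.4 and 77.7 CPM with Guibi-tang and 64.6, 66.1 and 63.2 CPM with Saengmaek-san (0.26 ± 0.05, adjusted p = 0.00222). DUSP3, a dual-specificity phosphatase, had 62.0, 64.2 and 61.9 CPM with Guibi-tang and 52.1, 55.4 and 55.6 CPM with Saengmaek-san, and differed by -0.02 and -0.004 at the medium and low dose. MIR3142HG, the host transcript of miR-146a, a microRNA known to restrain NF-kB signalling, was counted 11, 19 and 16 times with Guibi-tang and 1, 1 and 0 times with Saengmaek-san, a ratio of 22.4 (95% counting interval 5.87 to 191).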
